A study of Rattus norvegicus with 15 samples.

Results

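The mitochondrial carriers and the subunits that import proteins into mitochondria were described in the gastrocnemius muscle of protein-restricted rats. A probe set was a member where its only gene symbol began with Slc25a, Timm or Tomm, or was Mtfp1. This rule took 92 of the 31042 probe sets tested, for 65 of the 14217 genes that had a probe set of their own. Carriers made up 58 probe sets (40 genes), and the Timm and Tomm group 33 probe sets (24 genes). Mtfp1, a fission protein of the inner membrane, had 1 probe set. A further 3 probe sets that shared such a symbol with other symbols were not counted.

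RNA was measured in 15 male Wistar rats, with 1 GeneChip array per rat, and every rat was fasted for 16 h before sampling. All had been bought at 3.5 weeks of age and fed 15% casein for 3 days. LP rats (n = 4) then received 8% casein for 4 weeks, matched in calories, and CN rats (n = 4) received 15% casein. LP-R rats (n = 4) and CN-R rats (n = 3) passed through the same first phase and were sampled on day 84, after a second phase in which both ate the 15% casein diet. This second diet is taken from the study's methods, because the sample labels say instead that rats stayed on their first diet. CN-R replicate 3 was not analysed here. The labels of CN-R replicate 4 disagree, since its title names a control and its treatment field a protein restriction, so the called late values are also given without it. Rats chosen for the arrays had body weights close to their group's average.

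Carriers of the Slc25 family sit in the inner mitochondrial membrane and exchange nucleotides, phosphate, amino acids, carboxylates and cofactors with the cytosol. Nearly all mitochondrial proteins are made in the cytosol and enter through the TOM complex of the outer membrane. Proteins with a cleavable presequence then pass through TIM23, pulled by an Hsp70 motor, whereas the carriers themselves are escorted by small Tim chaperones to TIM22. In muscle, which uses much ATP, the adenine nucleotide and phosphate carriers supply the substrates of ATP synthesis.

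Of the 65 genes, 57 had a promoter in the RefSeq table (build GRCr8, 250 bases before to 50 bases after the annotated start). Those of 4 genes called by rank products in LP or LP-R muscle are shown, because they are the sequences that the changes below belong to. Slc25a30, which was also called, had no promoter in that table. A single capital inside the sequence marks the annotated start, and a run of capitals marks a cAMP response element (CRE, TGACGTCA) or an NRF1 motif (GCGCA, any base, GCGC), searched on both strands. The windows are chr3:36116532-36116831, minus strand, for Slc25a25; chr14:83195804-83196103, minus strand, for Mtfp1; chr13:49294355-49294654, minus strand, for Timm17a; and chr18:80594188-80594487, minus strand, for Timm21.
Slc25a25: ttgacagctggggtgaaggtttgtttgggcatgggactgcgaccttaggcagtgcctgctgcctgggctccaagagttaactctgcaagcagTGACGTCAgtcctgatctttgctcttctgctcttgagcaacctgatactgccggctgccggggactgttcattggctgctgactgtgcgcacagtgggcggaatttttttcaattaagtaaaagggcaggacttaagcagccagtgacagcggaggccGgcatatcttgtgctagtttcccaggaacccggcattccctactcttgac
Mtfp1: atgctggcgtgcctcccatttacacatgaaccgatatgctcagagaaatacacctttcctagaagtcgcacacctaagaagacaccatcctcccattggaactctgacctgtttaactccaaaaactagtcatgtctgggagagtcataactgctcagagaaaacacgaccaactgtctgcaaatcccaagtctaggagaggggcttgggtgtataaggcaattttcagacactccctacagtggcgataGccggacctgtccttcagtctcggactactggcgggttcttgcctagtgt
Timm17a: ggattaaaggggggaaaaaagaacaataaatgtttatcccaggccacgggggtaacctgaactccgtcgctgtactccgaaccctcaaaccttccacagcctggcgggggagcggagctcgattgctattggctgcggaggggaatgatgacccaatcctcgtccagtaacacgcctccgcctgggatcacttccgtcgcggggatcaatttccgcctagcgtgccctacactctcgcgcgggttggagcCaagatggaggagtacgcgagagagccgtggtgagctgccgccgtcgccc
Timm21: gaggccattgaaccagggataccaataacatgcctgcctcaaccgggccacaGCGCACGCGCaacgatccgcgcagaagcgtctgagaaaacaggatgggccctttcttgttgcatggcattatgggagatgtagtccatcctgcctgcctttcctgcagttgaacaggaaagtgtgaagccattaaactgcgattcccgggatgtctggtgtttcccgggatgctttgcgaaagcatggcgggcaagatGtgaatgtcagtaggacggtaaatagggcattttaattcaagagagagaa
The CRE of Slc25a25, the element bound by CREB, ran from base -158 to base -151 from the start. It was found in 1.83% of all 33469 promoters of this length and in 2 of the 57 matched members, the other being Slc25a33, a pyrimidine nucleotide carrier. The NRF1 motif of Timm21, named for a factor that controls nuclear genes for mitochondrial proteins, ran from base -198 to base -189. It was found in 4.25% of all promoters and in 4 of the 57 matched members (7.02%), which were Slc25a31, Timm21, Tomm20 and Tomm7. An ETS motif (CCGGAAGT) was found in 8 of the 57 matched members (14%) against 3.81% of all promoters. Of the 8, 6 were among the 22 matched Timm and Tomm genes and 2 among the 34 matched carriers. The core motif TGACG, held by 21.2% of all promoters, lay in the 4 windows shown only within the CRE of Slc25a25. Motifs of YY1 (AAGATGGC, in 3.17% of all promoters), ERR (TCAAGGTCA, 0.433%), FOXO (GTAAACA, 3.78%), an E-box (CACGTG, 6.42%) and a TATA box (TATAAA, in 4760 of 33469) were not found in the 4 windows, and none of the motifs searched was found in those of Mtfp1 and Timm17a.

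Signals are on the log2 scale, as summarized by FARMS, a factor analysis that sets a probe set to an almost constant value where its probes do not vary together. A probe set was called varying where its SD over the arrays of a set was above 0.01. In the early arrays (LP and CN) 20 of the 92 members varied (21.7%), against 12.8% of all probe sets. In the late arrays (LP-R and CN-R) 16 varied (17.4%), against 9.99% of all. Both sets of arrays shared 9 varying members, and 65 members, for 45 genes, varied in neither. Early and late arrays were summarized apart, so a level in one set is not compared with a level in the other. Within a set, arrays correlated with each other at r from 0.997 to 0.999 over all probe sets. Every probe set has its own baseline, so levels of different genes are not compared either.

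Muscle fibre genes were measured as the label says. Of 11 fibre markers measured (such as Ckm, Acta1 and Myh4), 0 were called in LP and 1 was called higher in LP-R, and their summed unlogged signal was 126042 to 126924 in LP against 125575 to 127004 in CN. Markers of slow fibres, which are rich in mitochondria, leaned one way: all 8 were below 0 in LP (median -0.086, 0 called) and all 8 in LP-R (median -0.164, 1 called lower). Their summed signal overlapped between groups, at 33939 to 41632 in LP against 37368 to 44218 in CN and at 32472 to 41287 in LP-R against 35622 to 42347 in CN-R. Endothelial markers did not overlap in the early arrays, at a summed signal of 2627 to 2867 in LP against 2378 to 2565 in CN, with 2 of 7 called higher (Kdr and Tie1). Adipocyte markers had 1 of 7 called higher in LP (Adipoq) and 1 of 7 called lower in LP-R (Cfd). Fibroblast markers had 2 of 7 called lower in LP (Col1a2, and Col1a1 at a probe set other than that of highest signal) and 0 in LP-R. In LP, 4 of the 6 varying fibroblast markers were above 0, with a median of 0.041. No macrophage marker varied, and 0 of 2 erythroid and 0 of 3 Schwann cell and nerve markers were called in either comparison. The part of these cell types in the results below was not tested, and in whole muscle fewer cells of a type cannot be told apart from less RNA per cell.

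LP against CN asks what protein restriction itself did to these genes. Calls were made by rank products, the test of the study, at a proportion of false positives (pfp) up to 0.05 in each direction, and by limma with Benjamini-Hochberg adjustment over all probe sets. By rank products, 3 members were called higher in LP (Mtfp1, Timm21 and Timm17a) and 2 lower (Slc25a25 and Slc25a30). Over all 31042 probe sets 1.68% were called higher, 1.58% lower and 3.26% in either direction. Of all varying probe sets 25.5% were called in either direction, and of the 20 varying members 5 were, so the number of calls was close to that of other varying genes. By limma 0 members and 0 probe sets passed at an adjusted p of 0.05, with 7 members at an unadjusted p below 0.05 (7.54% of all probe sets). Of these 7 members, Mtfp1, Timm17a, Timm21 and Slc25a3 varied, and the others were almost constant. When the constant probe sets were left out before ranking, rank products called 0 members in LP, and 11 probe sets higher and 20 lower in all. When the 25% of probe sets with the lowest signal were left out, the calls of Timm17a and Timm21 were lost.

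Mtfp1, which promotes division of the inner membrane, had the smallest pfp of the members called higher in LP. Its signal was 8.70, 8.69, 8.74 and 8.72 in LP rats, against 8.42, 8.44, 8.46 and 8.56 in CN rats. The lowest LP rat lay above the highest CN rat, and the rats within LP differed by less than those within CN. The change was 0.24 ± 0.03 on the log2 scale (SE), or 1.18-fold, with pfp = 0.00697 and a limma adjusted p of 0.525. The exact permutation test gave p = 0.0286, the smallest possible with 4 against 4 rats. The rank product call held with each of the 8 arrays left out in turn, at changes of 0.22 to 0.27.

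Among the import subunits, the called genes belonged to TIM23, the translocase for proteins with a presequence. Timm17a, a subunit of the TIM23 channel, was 10.38, 10.41, 10.40 and 10.40 in LP rats, against 10.29, 10.30, 10.30 and 10.33 in CN rats. The groups did not overlap, as was the case for 3 of the 20 varying members and for 7.9% of all varying probe sets. The change was small, at 0.09 ± 0.01 or 1.06-fold, with pfp = 0.0472, a limma adjusted p of 0.463 and an exact permutation p of 0.0286. Its rank product call was lost with any one of 7 arrays left out (all but CN replicate 4), while the change stayed between 0.09 and 0.10. Over all probe sets, higher calls fell from 522 to between 104 and 195 with an LP array left out. With a CN array left out they were 424 to 635. Timm21, which in yeast tethers TIM23 to the TOM complex, was 9.54, 9.66, 9.71 and 9.67 in LP rats, against 9.39, 9.56, 9.46 and 9.60 in CN rats. LP replicates 2, 3 and 4 were above every CN rat, and LP replicate 1 was within the CN range. The change was 0.14 ± 0.06, with pfp = 0.0414, a limma adjusted p of 0.654 and an exact permutation p of 0.0857. This call was lost with any one of 6 arrays left out (all but CN replicates 2 and 4), at changes of 0.11 to 0.18. Timm44, which anchors the import motor to the channel, was 7.43 ± 0.04 in LP and 7.34 ± 0.10 in CN (± SD of the 4 rats of each group) and was not called (0.08 ± 0.05, pfp = 0.062). CN replicate 4 was at 7.20 and the other CN rats at 7.38 to 7.42, so the change was 0.03 without it. Without CN replicate 3 it was 0.11 and was called. The second probe set of Timm44, that of Timm17b and that of Timm50 did not vary in the early arrays. All 3 varying Timm probe sets of TIM23 and its motor were thus above 0, with a median change of 0.090 against 0.017 over all varying probe sets. Among motor genes with other names, Grpel1 was 9.72 ± 0.07 in LP and 9.73 ± 0.06 in CN. Dnajc19 and Dnajc15 changed by 0.01 and 0.06, and none of these was called.

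The other import subunits were not called in LP. In the TOM complex, the receptor Tomm22 was 10.08 ± 0.04 in LP and 10.01 ± 0.12 in CN, and the pore Tomm40 was 8.91 ± 0.02 in both. Tomm70, the receptor that recognizes carrier precursors, was 9.91 to 10.07 in LP and 10.01 to 10.13 in CN, a change of -0.09 ± 0.04 (pfp = 0.0753), which was called lower without LP replicate 4 (-0.11). Its second probe set did not vary. Timm10, a small chaperone of the intermembrane space, was 10.63 ± 0.12 in LP and 10.58 ± 0.10 in CN. Timmdc1, which carries a Timm symbol but acts in the assembly of complex I, was 8.97 ± 0.03 in LP and 8.93 ± 0.04 in CN. Of the TIM22 group (Timm22, Timm29 and Timm10b), 0 of 6 probe sets varied in the early arrays. In all, 6 of the 8 varying Timm and Tomm probe sets were above 0 and 2 below, with a median change of 0.061.

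**Figure D1:**
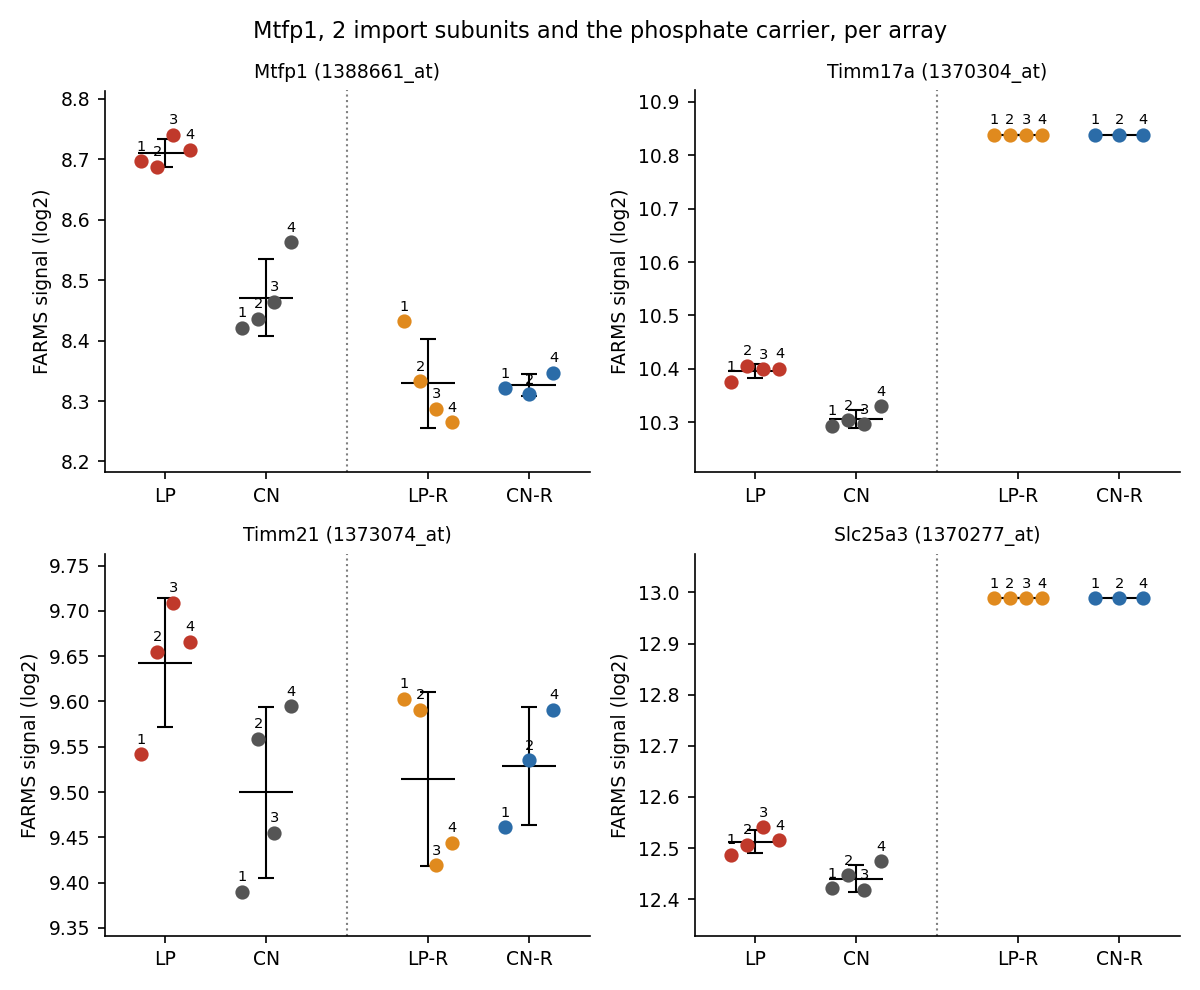
FARMS signal (log2) of Mtfp1, Timm17a, Timm21 and Slc25a3 in each array, with points numbered by replicate, LP left of CN and LP-R left of CN-R, and bars for the mean ± SD. The 4 LP arrays lie above the 4 CN arrays for Mtfp1, Timm17a and Slc25a3, while Timm17a and Slc25a3 are almost constant over the 7 late arrays; levels left and right of the dotted line are not comparable.

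The carriers called in LP were both lower, and both changes were smaller than their SE. Slc25a25 encodes an ATP-Mg and phosphate carrier that is activated by calcium and sets the adenine nucleotide content of mitochondria. Its signal was 10.38, 9.73, 9.17 and 6.98 in LP rats, against 10.11, 9.99, 9.57 and 9.10 in CN rats. LP replicate 4 lay far below the other rats, whereas LP replicate 1 was the highest of all 8, so the groups overlapped. The change was -0.63 ± 0.75, with pfp = 0.00408, a limma adjusted p of 0.888 and an exact permutation p of 0.6. Without LP replicate 4 the change turned to 0.07 and the call was lost, and it was also lost without CN replicate 1. Over all probe sets, lower calls numbered 530 without LP replicate 4 and 134 without CN replicate 1, against 492 with all arrays. The other 5 probe sets of this subfamily (Slc25a23, Slc25a24 and Slc25a41) did not vary.

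Slc25a30, a carrier of the group related to uncoupling proteins, had 2 probe sets. The first (1390416_at) was 7.96, 8.73, 8.14 and 7.84 in LP rats, against 7.93, 8.97, 8.47 and 8.29 in CN rats. The groups overlapped, and replicate 2 was the highest rat of both groups. The change was -0.25 ± 0.28, with pfp = 0.0165, a limma adjusted p of 0.881 and an exact permutation p of 0.429. The call was lost without LP replicate 4 (-0.14) or without CN replicate 2 (-0.06), 3 (-0.23) or 4 (-0.29), and the change was largest without LP replicate 2 (-0.43). Over all probe sets, lower calls fell from 492 to between 133 and 271 with a CN array left out. Without LP replicate 4 there were 530. The second probe set (1381973_at) was 6.45, 6.73, 6.56 and 6.49 in LP rats and 6.47, 6.74, 6.64 and 6.59 in CN rats. It was not called (-0.05 ± 0.08), and replicate 2 was again the highest in both groups.

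Carriers of the last steps of ATP synthesis were above 0 in LP without being called. Slc25a3, the phosphate carrier, was 12.49, 12.51, 12.54 and 12.52 in LP rats, against 12.42, 12.45, 12.42 and 12.47 in CN rats. The groups did not overlap, and the change was 0.07 ± 0.02 (pfp = 0.0597, limma adjusted p = 0.564, exact permutation p = 0.0286). Slc25a4, the adenine nucleotide carrier typical of muscle, was 13.72 ± 0.02 in LP and 13.71 ± 0.01 in CN. Its change of 0.01 became -0.00 under quantile normalization. Slc25a5, a second adenine nucleotide carrier, was 9.93 ± 0.10 in LP and 9.85 ± 0.12 in CN. The groups overlapped for Slc25a4 and for Slc25a5. Slc25a11, which exchanges oxoglutarate for malate, was 11.10 ± 0.07 in LP and 11.04 ± 0.07 in CN, and Slc25a20, which brings acylcarnitines in for oxidation, was 9.50 ± 0.07 in LP and 9.46 ± 0.05 in CN. These 5 were the carriers above 0 among the 11 varying carrier probe sets.

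The other 6 varying carrier probe sets were below 0, with the 3 just given for Slc25a25 and Slc25a30 among them. Slc25a28, which brings iron into mitochondria, was 8.51, 8.53, 8.51 and 8.40 in LP rats, against 8.77, 8.64, 8.59 and 8.49 in CN rats. Only CN replicate 4 fell within the LP range, and the change of -0.14 ± 0.06 was not called (pfp = 0.0544, limma adjusted p = 0.684). It was called lower without LP replicate 1 (-0.14), LP replicate 3 (-0.15) or CN replicate 4 (-0.18), and was smallest without CN replicate 1 (-0.09). Slc25a34, a carrier of little-known substrate, was 7.64 ± 0.16 in LP and 7.78 ± 0.19 in CN (-0.14 ± 0.12, pfp = 0.0683), and was called lower without LP replicate 3 (-0.18) or 4 (-0.19). Slc25a33 was 7.57 ± 0.26 in LP and 7.62 ± 0.11 in CN. The 5 probe sets of the aspartate and glutamate carriers, the 2 of Slc25a39 and the 1 of the glycine carrier Slc25a38 did not vary in the early arrays.

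**Figure D2:**
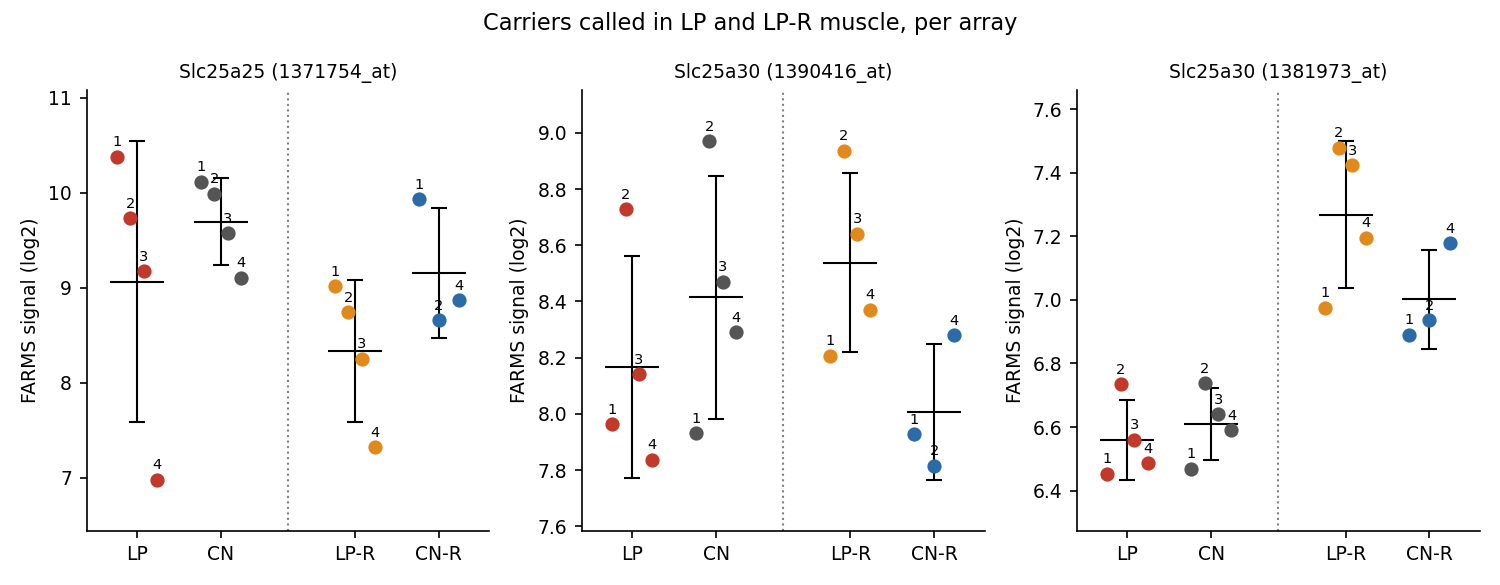
FARMS signal (log2) of Slc25a25 and of both probe sets of Slc25a30 in each array, with points numbered by replicate, LP left of CN and LP-R left of CN-R, and bars for the mean ± SD. LP replicate 4 lies at 6.98 for Slc25a25, while the CN rats lie between 9.10 and 10.11; the dotted line parts arrays whose levels are not comparable.

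LP-R against CN-R asks what was left of the restriction after the return to the control diet. Here 2 member probe sets were called higher in LP-R, both of Slc25a30, and 1 was called lower, that of Slc25a25. Over all probe sets 0.345% were called higher, 0.171% lower and 0.515% in either direction, and 5.16% of the varying probe sets in either direction, against 3 of the 16 varying members. The 3 calls belong to 2 genes. By limma 0 members and 0 probe sets passed at an adjusted p of 0.05, with 6 members at an unadjusted p below 0.05 (5.04% of all probe sets). Of these 6 members only Slc25a34 varied, and the others were almost constant. When the constant probe sets were left out before ranking, rank products called 1 member higher (Slc25a30, 1390416_at) and 0 lower, and 5 probe sets higher and 2 lower in all. Without CN-R replicate 4, rank products over all probe sets called 2 members higher and 0 lower, and 148 probe sets higher and 9 lower in all.

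Slc25a30 was higher in LP-R at both of its probe sets. The first (1390416_at) was 8.21, 8.94, 8.64 and 8.37 in LP-R rats, against 7.93, 7.82 and 8.28 in CN-R rats. LP-R replicate 1 lay below CN-R replicate 4, and the other 3 LP-R rats were above every CN-R rat. The change was 0.53 ± 0.21, or 1.44-fold, with pfp = 0 over 100 permutations, a limma adjusted p of 0.969 and an exact permutation p of 0.114. The smallest exact p with 4 against 3 rats is 0.0571. The call held with each of the 7 arrays left out, at changes of 0.40 to 0.67. Without CN-R replicate 4 the change was 0.67, and with that array counted as LP-R it was 0.62.

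The second probe set (1381973_at) was 6.98, 7.48, 7.42 and 7.19 in LP-R rats, against 6.89, 6.94 and 7.18 in CN-R rats. The order of the LP-R rats was the same as at the first probe set, with replicate 2 highest and replicate 1 lowest, and CN-R replicate 4 was the highest of its group at both. The change was 0.27 ± 0.15, with pfp = 0.0035 and a limma adjusted p of 0.98. This call was lost without LP-R replicate 2 or 3, at 0.20 in the lowest case, and held without CN-R replicate 4 (0.36). Over all probe sets, higher calls numbered 50 without LP-R replicate 2 and 30 without LP-R replicate 3, against 107 with all arrays. The change of the first probe set differed in sign between the comparisons (-0.25 in LP and 0.53 in LP-R). The difference of the changes was -0.78, with an exact permutation p of 0.058 (adjusted p = 0.831 over all probe sets), so a difference was not shown.

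Slc25a25 was lower again in LP-R, and again the groups overlapped. Its signal was 9.01, 8.74, 8.25 and 7.32 in LP-R rats, against 9.93, 8.66 and 8.87 in CN-R rats. LP-R replicates 3 and 4 were below every CN-R rat, and CN-R replicate 1 was above every LP-R rat. The change was -0.82 ± 0.53, or 1.77-fold lower in LP-R, with pfp = 0.0156, a limma adjusted p of 0.986 and an exact permutation p of 0.286. The call was lost without LP-R replicate 4 (-0.48), CN-R replicate 1 (-0.43) or CN-R replicate 4 (-0.96), and with CN-R replicate 4 counted as LP-R (-0.86). Over all probe sets, lower calls fell from 53 to between 2 and 9 with a CN-R array left out. With CN-R replicate 4 counted as LP-R there were 15, and without LP-R replicate 4 there were 72. In LP, CN, LP-R and CN-R alike replicate 1 was the highest rat of its group, and replicate 4 was the lowest in LP, CN and LP-R. The change in LP and that in LP-R differed by 0.19 (exact permutation p = 0.856).

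Other carriers were not called in LP-R. Slc25a34 was 8.11, 8.00, 8.05 and 8.11 in LP-R rats, against 8.27, 8.18 and 8.12 in CN-R rats. The groups did not overlap, and the change was -0.12 ± 0.05 (pfp = 0.113, limma adjusted p = 0.969, exact permutation p = 0.0571). Without CN-R replicate 4 it was -0.16 and was not called. Slc25a34 was the only one of the 16 varying members without overlap, against 3.84% of all varying probe sets. Slc25a39, which imports glutathione, was 9.42 ± 0.08 in LP-R and 9.38 ± 0.05 in CN-R. Slc25a11 was 11.43 ± 0.09 in LP-R and 11.42 ± 0.01 in CN-R, and Slc25a36, another pyrimidine nucleotide carrier, 9.14 ± 0.16 in LP-R and 9.13 ± 0.06 in CN-R. Slc25a3, Slc25a4 and Slc25a5 were almost constant over the late arrays. Slc25a12, an aspartate and glutamate carrier, both probe sets of Slc25a46 and both of Tomm20, a TOM receptor, varied in neither set of arrays.

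None of the 33 Timm and Tomm probe sets was called in LP-R, and neither was Mtfp1. Mtfp1 was 8.43, 8.33, 8.29 and 8.26 in LP-R rats, against 8.32, 8.31 and 8.35 in CN-R rats. Those values overlapped, with means of 8.33 ± 0.07 in LP-R and 8.33 ± 0.02 in CN-R. Timm21 was 9.51 ± 0.10 in LP-R and 9.53 ± 0.07 in CN-R, and Timm17a was almost constant at 10.84 in all 7 late arrays. The 8 varying Timm and Tomm probe sets had changes from -0.03 to 0.06, with a median of -0.014 against -0.024 over all varying probe sets. They were Timm9, Timm8b and Timm10 of the small chaperones, Timm22 and Timm29 of TIM22, Timm21 and Timm44 of TIM23, and Tomm7 of TOM. Timm9 was 8.21 ± 0.17 in LP-R and 8.15 ± 0.06 in CN-R, and Timm22, the pore for carrier proteins, was 7.94 ± 0.13 in LP-R and 7.97 ± 0.10 in CN-R. Without CN-R replicate 4, the changes of Timm10 (0.01), Timm21 (0.02) and Tomm7 (0.01) were above 0, and none of the Timm and Tomm changes named here was called.

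**Figure D3:**
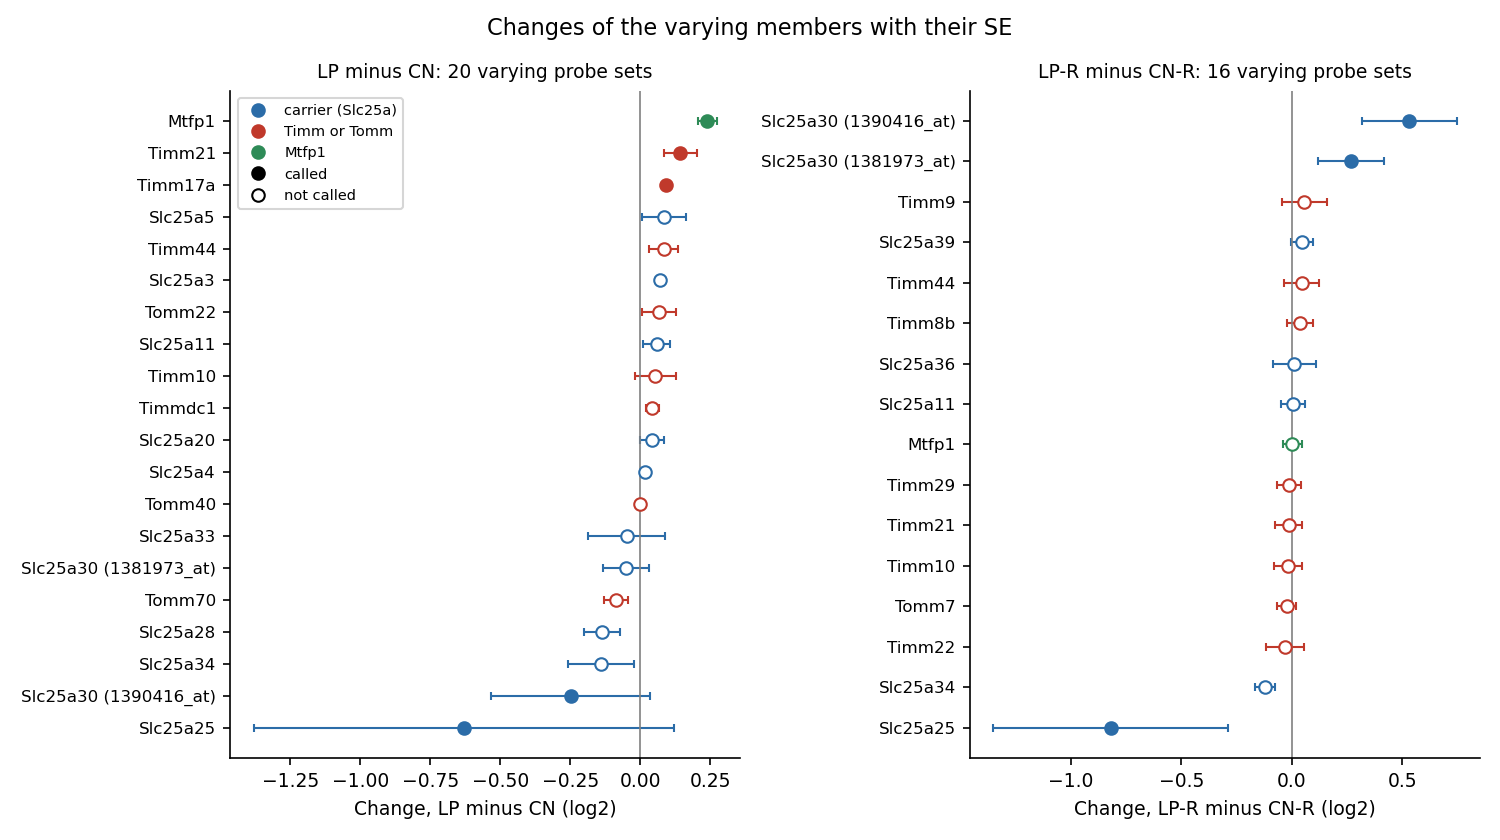
Change (log2) of each varying member, as a point with its limma SE, for LP minus CN (20 probe sets, left) and LP-R minus CN-R (16 probe sets, right), with filled points for members called by rank products. Mtfp1 stands at 0.24 in LP and at 0.00 in LP-R, and Slc25a25 has the widest SE of the varying members in both panels.

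The change of Mtfp1 differed between the comparisons by 0.24, with an exact permutation p of 0.0196 (adjusted p = 0.795 over all probe sets, and 0.42 for the limma contrast of all 4 groups). That of Timm17a differed by 0.09, with p = 0.0122 by the exact permutation test (adjusted p = 0.793, and 0.0755 for the limma contrast). Timm17a did not vary in the late arrays, so its test rests on the early arrays. None of the 27 members tested passed after adjustment.

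**Figure D4:**
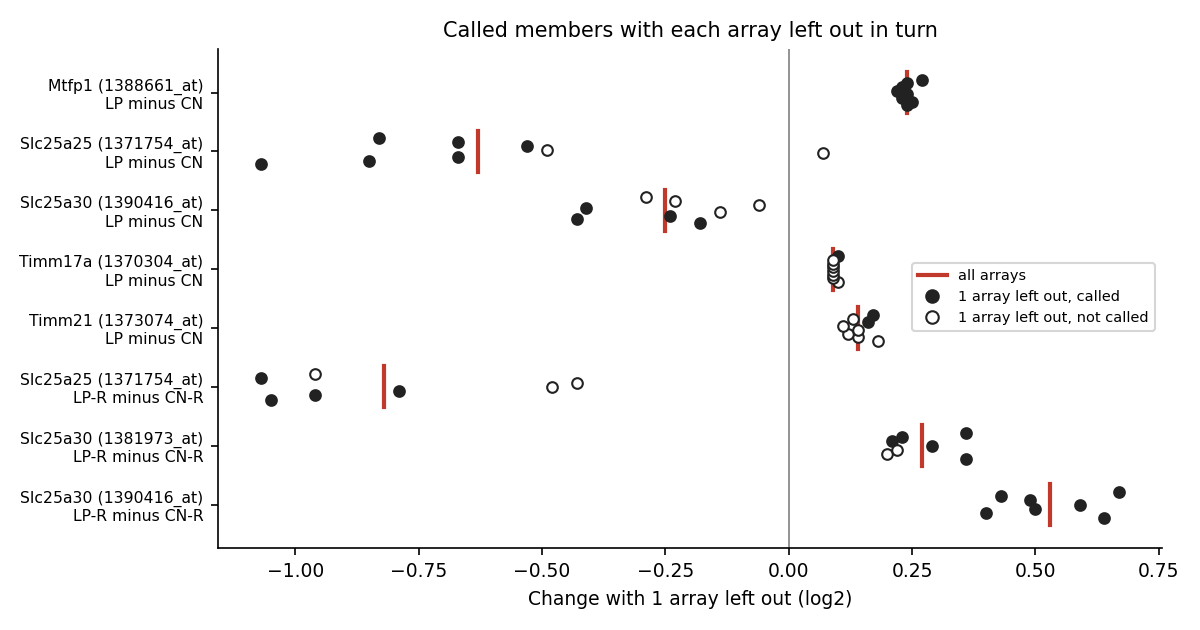
Change (log2) of each called member with each array left out in turn, as filled points where rank products still called it and open points where not, and a red line for the change over all arrays. Mtfp1 in LP (0.22 to 0.27) and Slc25a30 (1390416_at) in LP-R (0.40 to 0.67) kept their calls, and Slc25a25 in LP crossed 0.

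Most genes of the same processes with other names were almost constant at their probe set of highest signal. Over all probe sets, 3.26% were called in LP and 0.515% in LP-R. Of 22 measured import partners (motor, sorting, processing and chaperone genes such as Hspa9, Samm50 and Pmpca), 0 were called in LP and 0 in LP-R. Among them 6 varied in the early arrays and 5 in the late arrays. The largest change among their varying genes in LP was that of Hspd1, the matrix chaperonin, at 11.70 ± 0.07 in LP and 11.60 ± 0.06 in CN. Of 16 measured carriers and channels with other names, 2 varied in the early arrays and 4 in the late arrays, and 0 were called in either comparison. The uncoupling protein Ucp3 was 11.26 ± 0.06 in LP and 11.16 ± 0.12 in CN, and 11.39 ± 0.04 in LP-R and 11.41 ± 0.03 in CN-R. Of 14 fission and fusion genes, beside Mtfp1, 1 was called higher in LP and 0 in LP-R. This was Mief2, which recruits the fission GTPase Drp1 to the outer membrane, at 9.48 ± 0.07 in LP and 9.36 ± 0.08 in CN (0.12 ± 0.05, limma adjusted p = 0.663). All 5 varying genes of this list were above 0 in LP (median 0.045), and both varying ones were below 0 in LP-R (median -0.018).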

How the data were processed

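Total RNA of 15 gastrocnemius muscles was hybridized to GeneChip rat arrays. The authors normalized and summarized the arrays with FARMS in R, and each deposited value is the log2 signal of 1 probe set. That early and late arrays were summarized apart was read from the values: 94.7% of 26041 probe sets nearly constant in both differed between them by over 0.01. The values were used as deposited, with a precision set by how many arrays there are. Probe sets were named from the platform annotation: 20826 carried 1 symbol, 436 several and 9780 none. Control probe sets (57) were left out. The methylation arrays of the study were not analysed here.

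Rank products were computed over all pairs of arrays, with 100 permutations within arrays, seed 1 and a null distribution for each direction (Python 3.11.15, numpy 2.4.6, scipy 1.17.1, pandas 2.3.3). limma 3.58.1 ran in R 4.3.3 on each comparison alone. Exact permutation tests were two-sided over all splits of the arrays. SE is that of limma, and fold is 2 to the power of the log2 change. The difference of 2 changes was tested over all splits within both sets, which assumes no change in either. Both methods were run on simulated data with normal noise and the same spread in both groups, and no outcome is given here. Rank products is known to call many probe sets where none changed if spreads differ, so limma stands beside it.

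Members and gene lists were chosen with earlier results of these data known. Genes were named where called, where the selection rule names them, where they were among the 3 varying probe sets of smallest limma p by class, direction and comparison, or among the 5 of highest signal by class, and other varying members were added after their values were seen. Alternatives were quantile normalization, median centring, the varying probe sets alone, leaving out the 25% of probe sets with the lowest signal, another limma prior, a replicate block, a term for replicates 1 and 2 against 3 and 4, placing CN-R replicate 4 with LP-R, and leaving out each array. A pooled null distribution and a limma contrast of all 4 groups were added after seeing the data.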

Additional observations from a re-analysis of the deposited data

Results flagged for a closer look

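The changes of 4 members differed between LP and LP-R by the exact permutation test before adjustment, among 27 tested, and none after adjustment over all probe sets. The differences were 0.24 for Mtfp1 (exact permutation p = 0.0196), 0.09 for Timm17a (p = 0.0122 by the same exact test), 0.07 for Slc25a3 (exact p = 0.0139) and 0.01 for Slc25a4 (exact p = 0.0441), with adjusted p from 0.793 to 0.825. Timm17a, Slc25a3 and Slc25a4 were almost constant in the late arrays, so only Mtfp1 had spread on both sides of the test.

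For Slc25a4, LP replicate 3 lay apart at 13.75, with the other LP rats at 13.71. It was 1 of 46 groups of 4 rats checked for a value apart from the rest, of which chance sets apart about 1 in 20.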

How the results depend on the processing

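By limma, 0 members were called under every alternative run. By rank products, quantile normalization, median centring and the pooled null distribution left the numbers of members called higher and lower unchanged in both comparisons. With constant probe sets left out before ranking, 0 members were called higher and 0 lower in LP, and 1 higher and 0 lower in LP-R. Over all probe sets this setting called 11 higher and 20 lower in LP, and 5 higher and 2 lower in LP-R. Without the 25% of probe sets with the lowest signal, 1 member was called higher in LP, and 304 of 23281 probe sets in all. With CN-R replicate 4 counted with LP-R, 0 members were called lower in LP-R, and 15 probe sets in all. With an array left out, 1 to 3 members were called higher and 1 to 4 lower in LP, and 1 to 2 higher and 0 to 1 lower in LP-R. Calls over all probe sets moved as well, from 522 higher and 492 lower in LP. They were 104 to 195 and 391 to 626 without an LP array, and 424 to 635 and 133 to 271 without a CN array. In LP-R they moved from 107 higher and 53 lower. They were 30 to 62 and 72 to 133 without an LP-R array, and 117 to 148 and 2 to 9 without a CN-R array. Of the called changes, that of Slc25a25 in LP turned its sign, and ran from -1.07 to 0.07 as each array was left out (0.07 without LP replicate 4). Uncalled changes of Mtfp1, Slc25a11, Timm8b, Timm9, Timm10, Timm21, Timm22, Timm44 and Tomm7 in LP-R also turned their sign with an array left out. These changes stayed within -0.08 to 0.11. The uncalled change of Tomm40 in LP ran from -0.01 to 0.01. Why these settings move the calls was not tested.

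Whether replicate numbers pair the rats was not settled. Deviations of same-numbered rats from their group means correlated at 0.55, -0.03, 0.17 and 0.40 in the early arrays. In the late arrays they correlated at 0.04, 0.19 and 0.22. Differently numbered rats correlated at -0.54 to 0.33 in the early arrays and at -0.32 to 0.28 in the late arrays. With the replicate number as a block, rank products called 5 members higher and 5 lower in LP (Timm44 higher and Slc25a28, Slc25a34 and Tomm70 lower among those added), and changed no call in LP-R. In LP this block called 692 of the 31042 probe sets higher and 496 lower, against 522 and 492 without it. Over all probe sets, the pooled null distribution gave 55 higher and 134 lower in LP-R, against 107 and 53 with a null distribution for each direction.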
